A study of Mus musculus with 12 samples.

Results

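Cisplatin kills cells by tying DNA bases together, and the genes described here encode the machinery that removes or bypasses those platinum crosslinks. They are 41 genes of the mouse, taken by symbol from a table of 45777 genes: 14 of nucleotide excision repair, 10 of the Fanconi anemia pathway, 7 of homologous recombination, 4 of translesion synthesis, 2 of mismatch repair and 4 checkpoint kinases. All 41 were found in the table and all 41 passed the filter on low counts, so no member was lost. RNA was sequenced from whole kidneys of male wild type C57BL/6 mice, whose age is not given in the labels, in 12 libraries with 3 in each of 4 groups. Normal mice were untreated. The PBS group received cisplatin into the peritoneum in 5 weekly cycles of 9 mg/kg and then phosphate-buffered saline into a vein, 5 times at intervals of 3 days. The EV200 and EV400 groups had the same cisplatin course, followed on the same schedule by 200 or 400 µg of extracellular vesicles from iMSC, an abbreviation the labels leave unexplained. Kidneys were taken 3 days after the last treatment. Normal mice had no intravenous injections, so cisplatin and the injections cannot be told apart in comparisons with them. The labels call the 3 libraries of a group biological replicates without naming separate animals, so p-values measure the spread between these libraries only.

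Most platinum lesions link neighbouring bases of 1 strand and are cut out by nucleotide excision repair, in which a sensor finds the distorted helix, the TFIIH complex opens it and a pair of nucleases cuts on either side. The rarer links between both strands block replication forks. These are unhooked under the direction of the Fanconi anemia proteins, bypassed by translesion polymerases and finished by homologous recombination, while the ATM and ATR kinases halt the cell cycle. Excision repair runs in resting cells, whereas many Fanconi and recombination genes are transcribed mainly in cells that replicate DNA. The adult kidney tubule has few such cells, and its proximal segment takes up cisplatin.

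The promoters of 4 members are shown because they belong to the genes around which the results turn. Brca1, Fanci and Chek1 had low counts and higher values in PBS than in normal, a difference that passed the test for Brca1 alone. Ddb1 was the most abundant member. Each promoter runs from 250 bases before to 50 bases after the transcript start of RefSeq, on the gene's strand, in build GRCm38.p6. Capitals mark GCGGGAA or GCGCCAA on either strand (also TTCCCGC and TTGGCGC), words found in binding sites of the E2F factors of the replication phase.
Brca1, chr11:101551906-101552205, minus strand: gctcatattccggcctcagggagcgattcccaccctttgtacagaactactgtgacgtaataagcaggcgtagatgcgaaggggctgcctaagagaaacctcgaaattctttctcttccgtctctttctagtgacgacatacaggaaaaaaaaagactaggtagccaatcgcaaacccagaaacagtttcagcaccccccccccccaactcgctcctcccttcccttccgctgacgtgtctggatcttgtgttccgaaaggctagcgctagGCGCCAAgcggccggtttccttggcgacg
Fanci, chr7:79392088-79392387, plus strand: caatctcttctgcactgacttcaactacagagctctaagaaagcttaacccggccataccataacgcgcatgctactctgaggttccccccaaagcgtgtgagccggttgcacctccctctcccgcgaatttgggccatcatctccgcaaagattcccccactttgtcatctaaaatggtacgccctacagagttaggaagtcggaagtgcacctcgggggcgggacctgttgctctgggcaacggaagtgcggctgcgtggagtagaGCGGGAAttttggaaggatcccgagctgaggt
Chek1, chr9:36726609-36726908, minus strand: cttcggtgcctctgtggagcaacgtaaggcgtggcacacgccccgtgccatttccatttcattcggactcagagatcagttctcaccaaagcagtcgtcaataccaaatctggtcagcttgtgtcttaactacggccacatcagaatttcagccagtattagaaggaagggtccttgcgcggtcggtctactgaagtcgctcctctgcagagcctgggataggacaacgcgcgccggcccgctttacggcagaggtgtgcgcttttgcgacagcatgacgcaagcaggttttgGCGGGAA
Ddb1, chr19:10605347-10605646, plus strand: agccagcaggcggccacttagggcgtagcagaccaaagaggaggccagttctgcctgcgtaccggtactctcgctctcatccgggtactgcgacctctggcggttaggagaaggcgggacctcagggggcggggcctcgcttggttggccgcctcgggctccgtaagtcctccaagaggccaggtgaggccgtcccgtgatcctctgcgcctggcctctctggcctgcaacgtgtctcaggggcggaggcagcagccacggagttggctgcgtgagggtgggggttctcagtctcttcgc
In Brca1 the word GCGCCAA begins at base 22 after the start, in Fanci GCGGGAA begins at base 19, and in Chek1 GCGGGAA begins at base 44. Ddb1 has neither word in this window. The table holds a promoter for 35 members, of which 15 have at least 1 such word, against 6.81% of all 32851 promoters listed. Beside Brca1, Fanci and Chek1 they are Chek2, Brca2, Rad51c, Fancf, Fancg, Fancm, Atm, Msh6, Pms2, Ercc2, Ercc5 and Gtf2h1. Polh and Polk have no such word, and Fancd2 has no promoter listed. These 7-letter words were chosen after the sequences had been seen. With the longer words TTTCCCGC, TTTGGCGC, TTTCGCGC and TTTGCCGC, 5 members and 2.26% of all promoters had a match, and none of the 4 shown did. A match describes letters only, since no binding was measured.

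Levels spanned more than 3 orders of magnitude per unit of transcript length. In the normal group the authors' deposited TPM averaged 143 for Ddb1 and 0.104 for Fanci, with a median of 3.71 over the 41 members. By TPM, 10 members lay above 10 in normal kidney: Ddb1, Rad23b (56.3), Cetn2 (49.1), Gtf2h1 (26.2), Xpc (23.8), Ercc3 (20.4), Xpa (17.0), Slx4 (12.3), Msh6 (10.97) and Ercc1 (10.4). Of these 10, 8 act in excision repair. The 8 members under 1 TPM were Fanci, Brca1 (0.140), Fancd2 (0.214), Chek1 (0.307), Brca2 (0.457), Palb2 (0.526), Brip1 (0.547) and Xrcc3 (0.798), which act in the Fanconi pathway, recombination or the checkpoint. Ddb1 was highest and Fanci lowest in all 4 groups by mean TPM.

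**Figure D1:**
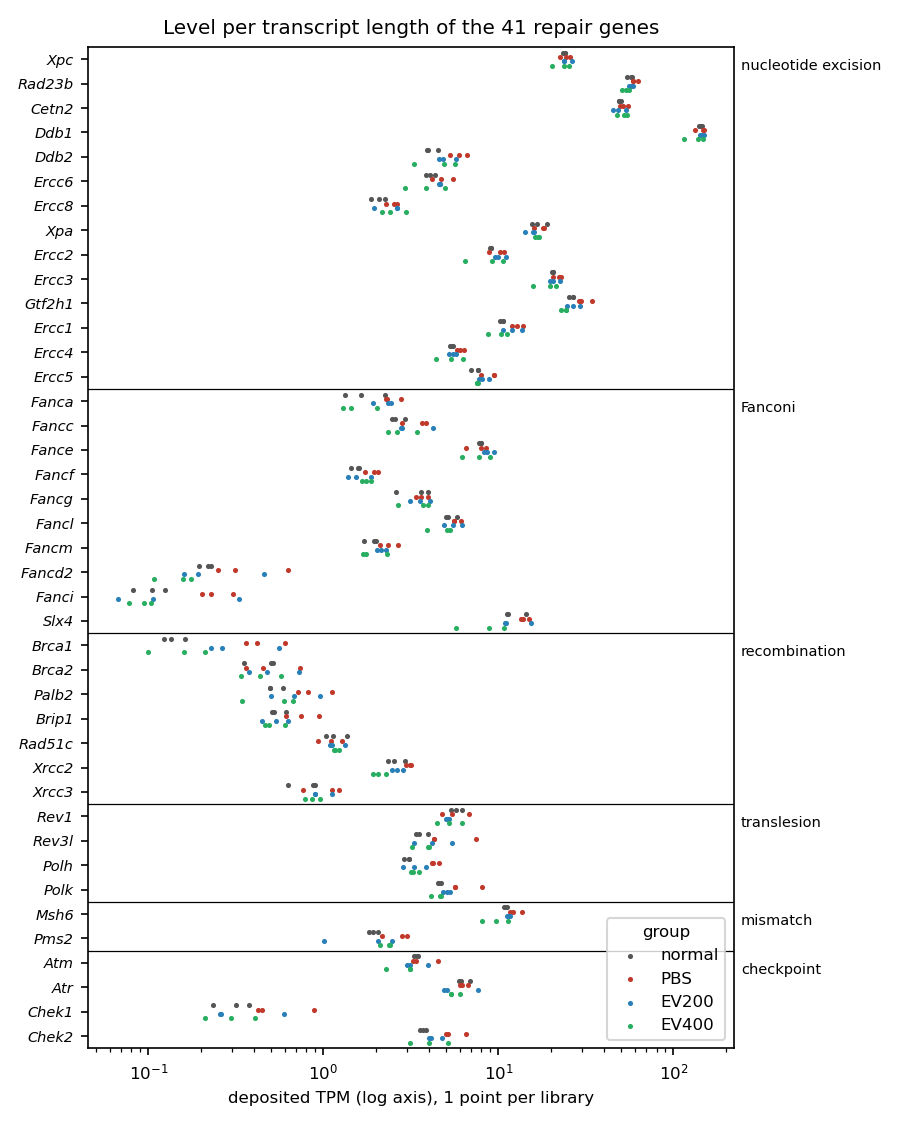
Deposited TPM (log axis) of each of the 41 repair genes, 1 point per library, coloured by group and ordered by pathway. Excision repair genes fill the upper range with Ddb1 at the top, and Fanci, Brca1, Fancd2 and Chek1 lie lowest with the widest scatter.

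Libraries held 46.6 M to 62.1 M counts. Kidney markers were abundant in every library, with the proximal tubule phosphate transporter gene Slc34a1 at 3176 to 6665 CPM (counts scaled to the library's total, adjusted by TMM factors). Library PBS 3 held adipocyte transcripts, with 6 marker genes summing to 46.5 CPM against 0 to 1.24 CPM elsewhere. PBS 2 and EV200 3 stood apart in another way. Their 14 markers of cycling cells summed to 77.5 and 72.6 CPM, and their 10 leukocyte markers to 280 and 249 CPM, each above the 10 other libraries. Their 10 proximal tubule markers were the lowest, at 12148 and 14051 CPM. EV400 3 lay at the other end, with the lowest leukocyte sum, 98.0 CPM. In whole tissue, fewer cells of a type and less RNA per cell cannot be told apart.

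Of the 41 members, 1 was called in PBS against normal, Brca1, which rose 2.84-fold. Calls are at an adjusted p under 0.05 (Benjamini-Hochberg, over all 18730 genes tested) in the quasi-likelihood test of edgeR. That is 2.44% of the members, against 2.74% of all genes, 1.84% higher and 0.902% lower. The members' share lies near the background. At an unadjusted p under 0.05, 4 members were higher (Brca1, Polh, Polk, Chek2) and 1 was lower (Ddb1), 12.2% against 29.8% of all genes, of which 17% were higher and 12.8% lower. The PBS libraries all exceeded the normal ones for 8 members, 19.5% against 20.3% of all genes, and below for 6, 14.6% against 20% of all genes. The members' median log2 fold change was 0.05, and that of all genes 0.00. No member was called for any difference among the 4 groups by edgeR (0.0641% of all genes), although 3 had an unadjusted p under 0.05 (Brca1, Slx4, Polh; 19.7% of all genes) and DESeq2 called 1, Brca1, among 1663 genes in all.

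**Figure D2:**
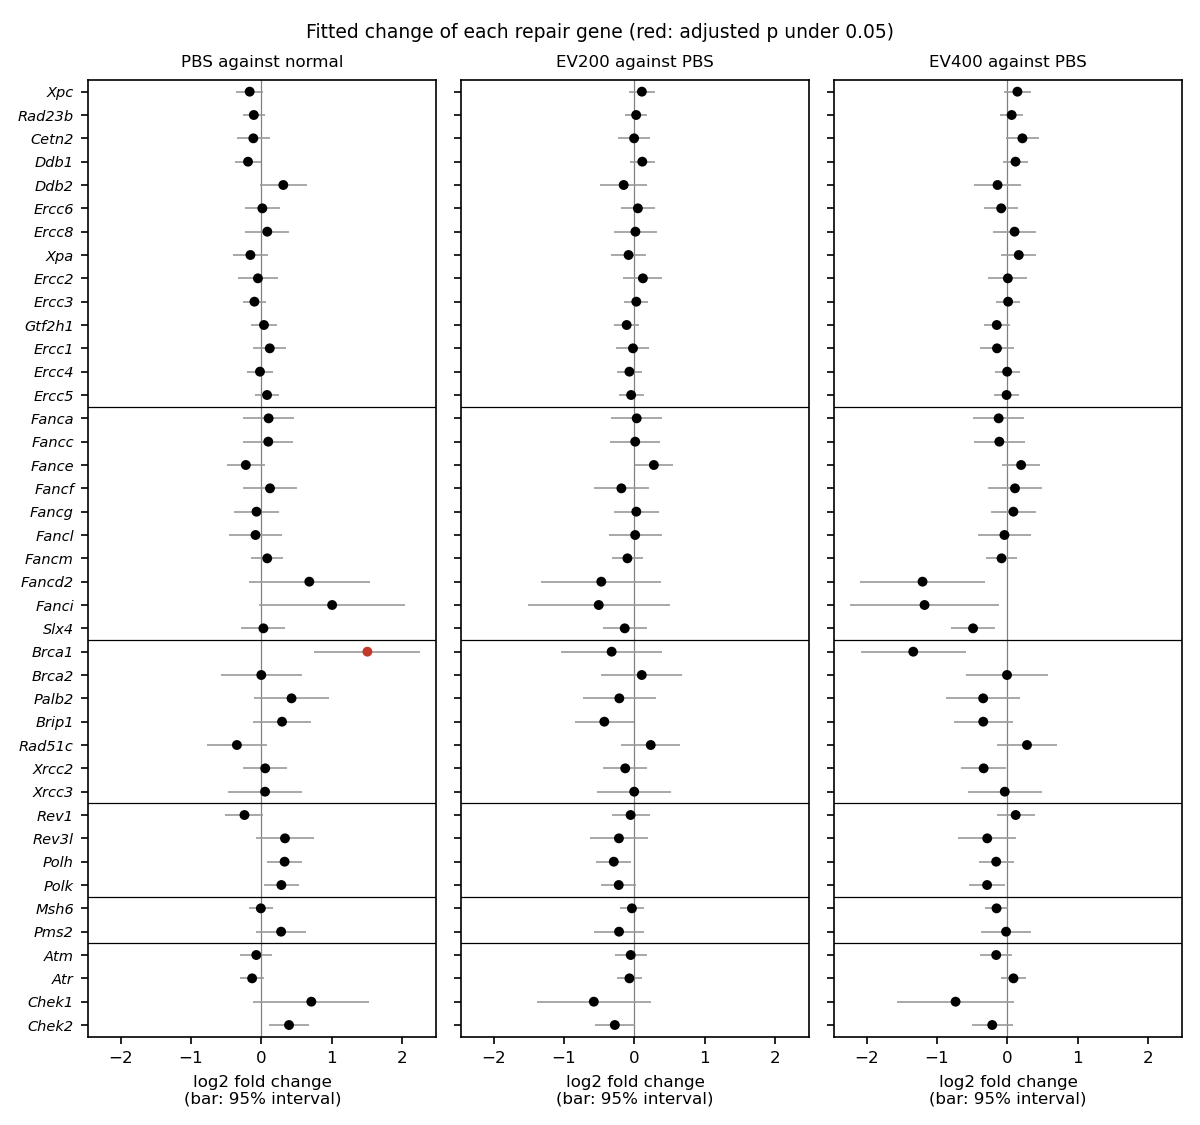
Fitted log2 fold changes with 95% intervals for all 41 members in PBS against normal, EV200 against PBS and EV400 against PBS, red where the adjusted p was under 0.05. Brca1 is the single red point, in PBS against normal. The intervals of excision repair genes are narrow, while those of Fancd2, Fanci, Brca1 and Chek1 are wide. In PBS against normal the interval of Ddb1 lies below 0.

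None of the 14 members in nucleotide excision repair was called in any comparison, and their fitted changes in PBS against normal ran from -0.19 to 0.31 log2. The 95% intervals of these 14 changes reached no lower than 0.754-fold and no higher than 1.56-fold. For EV200 against PBS the outermost bounds were 0.715-fold and 1.32-fold, and for EV400 against PBS 0.721-fold and 1.36-fold.

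The damage sensors come first in the pathway. Ddb1, the adaptor of the ubiquitin ligase that marks damaged chromatin (chromosome 19, 10605568 to 10629828, GRCm38.p6), had 356, 358 and 354 CPM in normal replicates 1 to 3, 330.1, 277 and 329 in PBS, 351, 342 and 319 in EV200 and 335, 342 and 338 in EV400. The normal libraries were close to each other in this gene (coefficient of variation 0.534%), and all 3 PBS libraries lay below them, with PBS 2 lowest. The log2 fold change was -0.19 (SE 0.08), with an adjusted p of 0.151 by edgeR. Xpc, the sensor that first binds a distorted helix (chromosome 6, 91489305 to 91515888), had 51.2, 51.4 and 50.8 CPM in normal, 47.5, 40.2 and 49.0 in PBS, 53.1, 49.6 and 44.4 in EV200 and 49.4, 51.0 and 50.6 in EV400. PBS 2 and EV200 3 were the lowest libraries for Xpc, and normal and EV400 libraries overlapped. Rad23b, the XPC partner that stabilises it, had 128, 125 and 128 CPM in normal and 119.5, 117 and 117 in PBS, and Cetn2, the centrin of the same complex, had 34.0, 34.9 and 34.6 and 32.7, 32.2 and 30.7. These 4 of the 5 damage recognition genes had every PBS library below every normal library, as did 20% of all genes. Their log2 fold changes lay between -0.19 and -0.11, with adjusted p from 0.151 to 0.490 by edgeR. Xpc and Rad23b were added to the genes shown by library after their values were seen.

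In EV400 the Cetn2 libraries had 35.4, 31.4 and 44.2 CPM, with EV400 3 above all others, and in EV200 29.7, 32.8 and 32.9 CPM. Rad23b ranged from 113 to 134 CPM over the vesicle libraries, on both sides of the PBS values. Against PBS, EV400 was higher without overlap for Ddb1 and Xpc, at log2 fold changes of 0.12 and 0.14 that were not called (adjusted p 0.377 and 0.308 by edgeR). The sum of 10 proximal tubule markers was also lower in PBS than in normal. It was 21332 to 21436 CPM in normal, 12148 to 17349 in PBS, 14051 to 20307 in EV200 and 18466 to 19014 in EV400. Of these markers, 1 of 10 was called lower in PBS against normal, while Gatm exceeded all normal libraries in PBS 1 and PBS 3. Cetn2 did not follow the sum in EV200 1, its lowest library. The part of these markers in the sensors' values was not tested. The direction also rests on the scale. On the deposited TPM the median gene lay 0.20 log2 higher in PBS than in normal, and on that scale Ddb1 had 0.00, Xpc 0.03, Rad23b 0.09 and Cetn2 0.08, which becomes -0.19, -0.17, -0.11 and -0.11 relative to the median gene. In EV400 against PBS the median gene lay at -0.24 on deposited TPM, with Ddb1 at -0.10 and Xpc at -0.07, or 0.14 and 0.17 relative to that median.

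**Figure D3:**
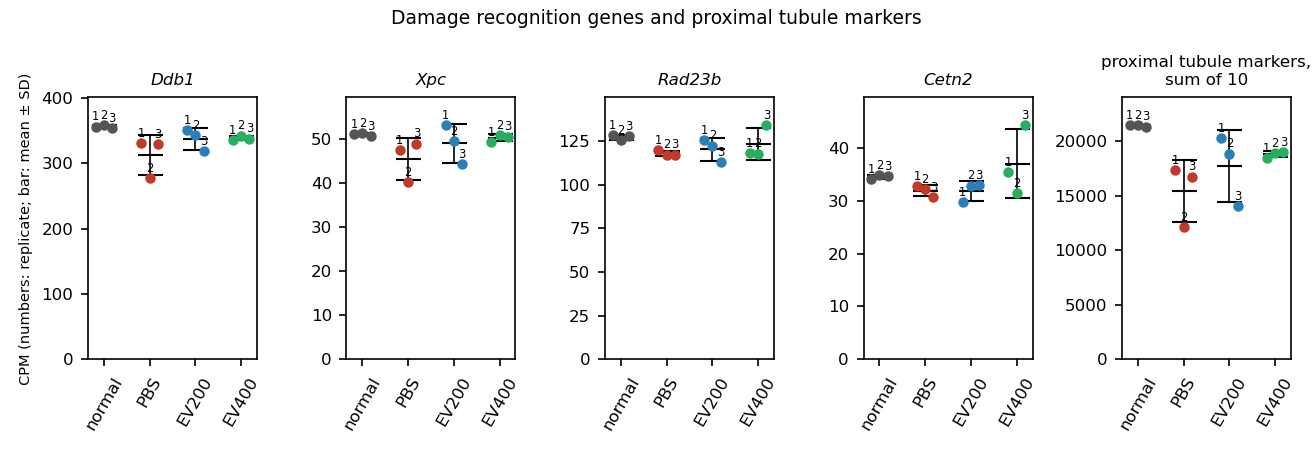
CPM of 4 damage sensor genes and the summed CPM of 10 proximal tubule markers in every library, with the replicate number beside each point and mean ± SD per group. PBS points lie below the normal points in each panel, and PBS 2 is lowest of all libraries for Ddb1, Xpc and the marker sum.

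Ddb2, the sensor subunit that recognises ultraviolet lesions and a known p53 target in human cells, was the exception among the sensors. It was shown by library after its values were seen, and it had 4.40, 5.09 and 4.26 CPM in normal, 5.20, 5.40 and 6.46 in PBS, 4.96, 4.88 and 5.54 in EV200 and 6.13, 5.06 and 4.31 in EV400. All PBS values exceeded all normal values, but the log2 fold change of 0.31 (SE 0.15) was not called (adjusted p 0.193 by edgeR), and EV400 spanned the range of both. Among 12 p53 target genes, 1 was called higher in PBS against normal, Btg2, and none was called for either vesicle dose against PBS. Cdkn1a, the p53 target that halts the cell cycle, had 3.30 to 3.99 CPM in normal and 7.21, 13.3 and 7.47 CPM in PBS. Btg2, Phlda3 and Trp53inp1, like Cdkn1a, had every PBS library above every normal library. Sesn2 on the same list went the other way, with every PBS library below every normal library. The 12 genes summed to 442 to 459 CPM in normal and to 465, 506 and 438 CPM in PBS, a sum in which the abundant Ccng1 weighs most. In exons, Ddb2 overlaps the opposite-strand gene Acp2 by 652 bases, and Ddb1 overlaps Tkfc by 328 bases.

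Stalled RNA polymerase recruits the transcription-coupled branch. Ercc6, the CSB remodeller, had 20.6, 22.8 and 19.8 CPM in normal, 21.7, 23.2 and 19.0 in PBS, 22.2, 22.9 and 21.1 in EV200 and 19.4, 23.3 and 17.5 in EV400. Ercc8, the CSA subunit of its ubiquitin ligase, had 4.15, 4.02 and 4.71, 4.33, 4.43 and 4.89, 4.91, 4.75 and 4.15 and 4.07, 5.35 and 5.26 CPM in the same order. All 4 groups overlapped in both genes, with changes of 0.01 (95% interval -0.23 to 0.26) and 0.08 (-0.23 to 0.40) log2 in PBS against normal.

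Damage is then verified and the helix opened. Xpa, which checks the lesion and positions the nucleases, had 9.17, 9.77 and 10.8 CPM in normal, 8.51, 9.04 and 9.11 in PBS, 8.79, 8.02 and 8.39 in EV200 and 9.43, 8.89 and 11.6 in EV400. PBS and EV200 libraries lay below all normal libraries, EV400 overlapped them, and the change in PBS was -0.16 log2 (interval -0.41 to 0.10). Gtf2h1, the p62 subunit of TFIIH, had 43.7, 42.4 and 42.9 CPM in normal, 42.7, 46.5 and 43.1 in PBS, 45.1, 39.3 and 38.2 in EV200 and 39.1, 37.0 and 43.3 in EV400, and every pair of groups overlapped. The TFIIH helicase genes Ercc2 (XPD) and Ercc3 (XPB) changed by -0.05 and -0.10 log2 in PBS against normal, with adjusted p of 0.829 and 0.407 by edgeR.

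The nucleases cut last. Ercc1, whose product cuts on the 5′ side together with XPF, had 7.07, 6.90 and 6.79 CPM in normal, 8.25, 7.32 and 6.999 in PBS, 7.47, 6.85 and 7.94 in EV200 and 7.26, 6.42 and 6.70 in EV400. Its partner Ercc4 (XPF) had 22.8, 21.5 and 22.1, 22.5, 19.6 and 23.3, 20.9, 20.6 and 20.8 and 21.2, 23.4 and 20.7 CPM. These 2 genes overlapped between PBS and normal. Ercc5 (XPG), which cuts on the 3′ side, changed by 0.08 log2 in PBS against normal (interval -0.10 to 0.26).

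The 7 members of the core, the ligase assembly that recognises a blocked fork, were Fanca, Fancc, Fance, Fancf, Fancg, Fancl, which is the ligase subunit, and Fancm, the helicase that anchors the complex. Their changes in PBS against normal lay between -0.22 and 0.12 log2, none was called, and their intervals ended at 0.713-fold and 1.43-fold. Fance, the core subunit that contacts FANCD2, had 9.19, 9.44 and 8.78 CPM in normal, 8.39, 6.40 and 8.76 in PBS, 9.02, 9.90 and 9.60 in EV200 and 8.85, 9.66 and 8.46 in EV400. It was the single core gene with PBS wholly below normal, with PBS 2 lowest, and wholly below EV200 (0.28 log2, adjusted p 0.657 by edgeR). Fancf, the adaptor encoded without introns, had 1.59, 1.62 and 1.41 CPM in normal, 1.76, 1.46 and 1.83 in PBS, 1.44, 1.35 and 1.64 in EV200 and 1.73, 1.76 and 1.95 in EV400. EV400 lay above normal in this gene without being called (0.23 log2, adjusted p 0.808 by edgeR).

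Fancd2 and Fanci encode the clamp that the core complex marks with ubiquitin at a crosslink. Fancd2 (chromosome 6, 113531640 to 113597020) had 0.74, 0.74 and 0.62 CPM in normal, 0.75, 1.70 and 0.90 in PBS, 0.51, 0.61 and 1.31 in EV200 and 0.50, 0.54 and 0.42 in EV400. PBS 2 and EV200 3 were the high libraries, PBS 1 barely exceeded normal, and the 3 EV400 libraries lay below all PBS and all normal libraries. Fanci (chromosome 7, 79392312 to 79450266), shown by library after its values were seen, had 0.36, 0.23 and 0.31 CPM in normal, 0.58, 0.72 and 0.50 in PBS, 0.18, 0.30 and 0.80 in EV200 and 0.29, 0.25 and 0.26 in EV400. All PBS libraries lay above all normal and all EV400 libraries, and EV200 held both the lowest and the highest value of the series.

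In PBS against normal the log2 fold changes were 0.68 (SE 0.40) for Fancd2 and 1.01 (SE 0.48) for Fanci, with adjusted p of 0.262 and 0.180 by edgeR. For EV400 against PBS they were -1.20 (SE 0.41) and -1.18 (SE 0.49), with adjusted p of 0.158 and 0.190. Both comparisons use the same PBS libraries, so the opposite signs are not independent. Counts were low, as Fancd2 had 18 to 118 counts and Fanci 11 to 50 counts per library. Fanci also shares 921 exon bases with Polg on the opposite strand, and Fancd2 shares 257 with Fancd2os.

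Slx4, the scaffold that holds the nucleases which unhook a crosslink (chromosome 16, 3979105 to 4003829), had 42.1, 38.5 and 45.2 CPM in normal, 45.0, 43.5 and 39.8 in PBS, 47.5, 34.3 and 34.9 in EV200 and 30.3, 36.0 and 25.2 in EV400. Normal and PBS overlapped, with a change of 0.03 log2, while each EV400 library lay below each normal and each PBS library. EV400 3 was the lowest of the 12 and EV200 1 the highest. The change of EV400 against PBS was -0.49 log2 (SE 0.14, interval -0.80 to -0.17), with an adjusted p of 0.148 by edgeR, and against normal it was -0.46 (adjusted p 0.656). DESeq2 called it in EV400 against PBS (adjusted p 0.0390), where it called 877 genes in all and edgeR 15.

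**Figure D4:**
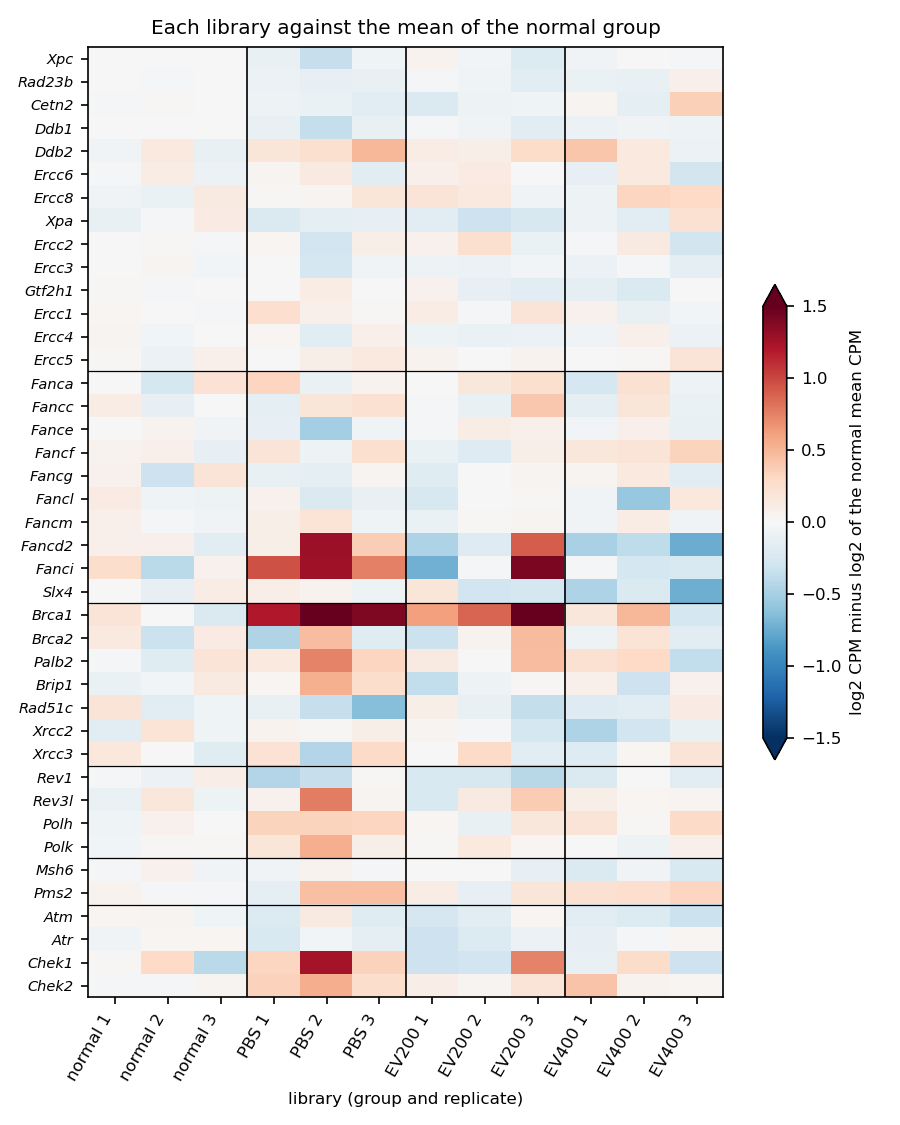
Log2 CPM of each library minus the log2 of the normal mean for the 41 members, capped in colour at 1.5 in either direction. Brca1 is red in all PBS and EV200 libraries, and Fanci in all PBS libraries and EV200 3. Fancd2 and Chek1 are reddest in PBS 2 and EV200 3, Slx4 is blue in EV400, and the excision repair rows at the top are pale.

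Recombination rebuilds the strand broken at an unhooked crosslink, and it held the one called member. Brca1 (chromosome 11, 101488761 to 101551955), whose product directs broken ends into recombination, had 0.64, 0.55 and 0.48 CPM in normal, 1.28, 1.99 and 1.47 in PBS, 0.85, 1.02 and 1.94 in EV200 and 0.63, 0.79 and 0.46 in EV400. Every PBS and every EV200 library exceeded every normal library, and EV400 libraries overlapped the normal range. Means were 0.557 ± 0.0801, 1.58 ± 0.367, 1.27 ± 0.585 and 0.626 ± 0.162 CPM (SD, n = 3). Brca1 rose in PBS against normal by 1.51 log2 (SE 0.35, interval 0.76 to 2.26), higher in 3 of 3 libraries, with an adjusted p of 0.0471 by edgeR.

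That call is close to the threshold. Leaving out normal 1, 2 or 3, PBS 2 or PBS 3, EV200 2, or EV400 1 or 2 raised the adjusted p to between 0.0570 and 0.158 by edgeR, and the fold change stayed between 1.32 and 1.63 log2 over all 12 omissions. With no filter on low counts Brca1 had 1.52 log2 and an adjusted p of 0.0506. DESeq2 called Brca1 with an adjusted p of 0.00390, among 2776 genes in all where edgeR called 514. With PBS 2 and EV200 3, the libraries rich in cycling and leukocyte markers, both omitted, a choice made after seeing the data, Brca1 had 1.31 log2 and an adjusted p of 0.0291 by edgeR. The remaining PBS 1 and PBS 3 still exceeded every normal library in both marker sums. They had 51.7 and 53.8 CPM of cycling markers and 170 and 197 CPM of leukocyte markers. The part of these markers in the Brca1 values was not tested. Brca1 counts ranged from 20 to 138 per library, and its exons overlap no other gene in GENCODE vM21.

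Against PBS, Brca1 had log2 fold changes of -0.32 (interval -1.04 to 0.39, adjusted p 0.729 by edgeR) in EV200 and -1.34 (-2.08 to -0.59, adjusted p 0.127) in EV400. DESeq2 called the EV400 difference with an adjusted p of 0.0256, among 877 genes in all where edgeR called 15. EV400 against EV200 gave -1.01 (SE 0.34, adjusted p 0.769 by edgeR), so the doses were not shown to differ. Against normal, EV200 had 1.18 (adjusted p 0.199) and EV400 0.17 (interval -0.60 to 0.94, adjusted p 0.944).

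None of the other 6 recombination genes was called. Brca2, a hereditary breast cancer gene like Brca1, changed by 0.00 log2 in PBS against normal (interval -0.58 to 0.58), Palb2, which joins BRCA1 to BRCA2, by 0.43 (-0.10 to 0.96) and the helicase gene Brip1 by 0.29 (-0.12 to 0.71). Rad51c had -0.35 (-0.77 to 0.08) and Xrcc3 0.05 (-0.48 to 0.58). Xrcc2 had 4.42, 5.71 and 4.71 CPM in normal, 5.12, 5.02 and 5.27 in PBS, 5.10, 4.88 and 4.12 in EV200 and 3.59, 4.06 and 4.57 in EV400. Its EV400 libraries lay below all PBS libraries (-0.34 log2, adjusted p 0.200 by edgeR). PBS 2 had the highest Palb2 and Brip1 values of the 12 libraries, 2.34 and 3.25 CPM.

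Translesion polymerases copy past a lesion without removing it. Polh, encoding the polymerase eta that crosses platinum adducts, had 5.5001, 5.97 and 5.73 CPM in normal, 7.23, 7.25 and 7.15 in PBS, 5.87, 5.32 and 6.47 in EV200 and 6.57, 5.82 and 7.001 in EV400. The PBS libraries were nearly equal and lay above every other library of the series. The changes were 0.33 log2 in PBS against normal (SE 0.11, adjusted p 0.0914 by edgeR), -0.29 in EV200 against PBS (adjusted p 0.657) and -0.16 in EV400 against PBS (adjusted p 0.391), none of them called. Polk, the polymerase kappa gene, had 11.2, 11.6 and 11.6 CPM in normal, 13.0, 16.7 and 12.2 in PBS, 11.6, 12.7 and 11.7 in EV200 and 11.4, 10.9 and 12.1 in EV400, with PBS 2 highest and PBS above normal without overlap (0.28 log2, adjusted p 0.129). Rev3l, the catalytic subunit of polymerase zeta, had 39.8 CPM in PBS 2 and 19.9 to 30.4 CPM in the 11 other libraries. Rev1, its scaffold, went the other way at -0.24 log2 in PBS against normal (adjusted p 0.212), and 1643 of its exon bases overlap Eif5b on the opposite strand.

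Mismatch repair proteins recognise platinum adducts without repairing them and are known for passing the signal to cell death. Msh6, a subunit of the MutS alpha sensor, had 27.5, 28.9 and 26.7 CPM in normal, 26.7, 28.8 and 27.1 in PBS, 27.7, 27.6 and 25.4 in EV200 and 23.8, 26.8 and 23.7 in EV400. PBS and normal overlapped, with a change of -0.01 log2 (interval -0.17 to 0.16). Pms2, the endonuclease subunit of MutL alpha, had 4.82, 4.56 and 4.61, 4.21, 6.40 and 6.36, 5.05, 4.27 and 5.29 and 5.45, 5.53 and 5.82 CPM. PBS 2 and PBS 3 were high and PBS 1 was below normal, so that Pms2 passed the test without PBS 1 (0.45 log2, adjusted p 0.0484 by edgeR) and not with it (0.28, adjusted p 0.257). Pms2 shares exon bases on its own strand with the gene models Gm42421 and Rsph10b, by 394 and 85 bases.

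Checkpoint kinases sense the damage. Atr, the kinase of stalled forks, had 30.1, 31.9 and 31.9 CPM in normal, 26.8, 30.3 and 28.5 in PBS, 25.2, 27.1 and 29.3 in EV200 and 28.7, 30.5 and 31.9 in EV400. EV200 lay below normal (-0.20 log2, adjusted p 0.317 by edgeR), and Atr overlaps the antisense transcript 1700065D16Rik by 726 bases. Atm, the kinase of double-strand breaks, changed by -0.07 log2 in PBS against normal (interval -0.30 to 0.16). Chek2, the kinase downstream of ATM, had 5.04, 4.99 and 5.23 CPM in normal, 6.48, 7.42 and 6.13 in PBS, 5.46, 5.25 and 5.83 in EV200 and 6.82, 5.26 and 5.19 in EV400. PBS values lay wholly above normal values, at 0.39 log2 (SE 0.13, adjusted p 0.0879 by edgeR). DESeq2 called Chek2 (adjusted p 0.0495), among 2776 genes in all where edgeR called 514.

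Chek1, the kinase downstream of ATR (chromosome 9, 36708482 to 36726658), was shown by library after its values were seen. It had 0.64, 0.78 and 0.48 CPM in normal, 0.79, 1.502 and 0.80 in PBS, 0.51, 0.52 and 1.06 in EV200 and 0.58, 0.77 and 0.51 in EV400. PBS 2 and EV200 3 were again the highest libraries, as for Fancd2, and the gap between the groups PBS and normal rested on 0.79 against 0.78 CPM. Its change in PBS against normal was 0.71 log2 (SE 0.38, adjusted p 0.224 by edgeR).

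**Figure D5:**
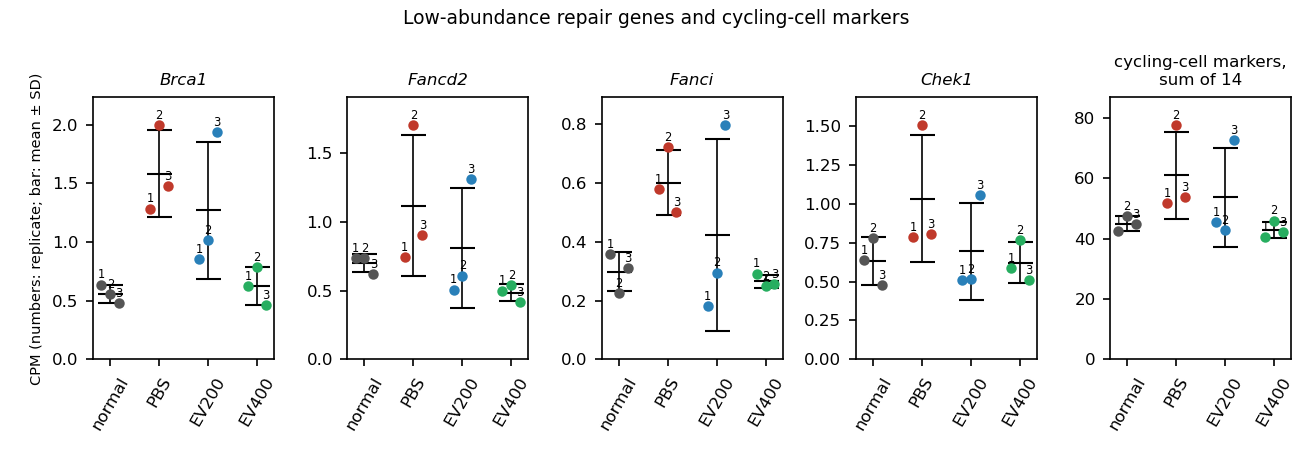
CPM of Brca1, Fancd2, Fanci and Chek1 and the summed CPM of 14 cycling-cell markers in every library, with the replicate number beside each point and mean ± SD per group. PBS 2 and EV200 3 are the highest libraries in each panel. The other PBS libraries also lie above all normal libraries in each panel, by a narrow gap for Fancd2 and Chek1.

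The summed markers of dividing cells were highest in PBS 2 and EV200 3, the libraries where these 4 low-abundance genes were highest. In EV200 1 and EV200 2 the marker sum was not above the normal range, while Brca1 was. Single markers did not all follow the sum, in which abundant genes such as Mcm2 weigh most. Mcm2 and Tyms in PBS 2, and Tyms in EV200 3, lay below every normal library in CPM. In CPM, Top2a exceeded every normal library in both EV200 1 and EV200 2. Mki67 did so in EV200 1 and lay below them in EV200 2. The 14 cycling markers, none at 0 in any library, summed to 42.7 to 47.5 CPM in normal, 51.7, 77.5 and 53.8 in PBS, 45.6, 42.9 and 72.6 in EV200 and 40.7 to 46.0 in EV400. No marker was called in PBS against normal, 4 of 14 had an unadjusted p under 0.05, and their median change was 0.60 log2. Mki67, a protein gene of dividing cells, had 4.01 to 4.84 CPM in normal, 17.1 in PBS 2 and 12.7 in EV200 3. The 10 leukocyte markers summed to 112 to 125 CPM in normal, 170, 280 and 197 in PBS, 125, 136 and 249 in EV200 and 98.0 to 161 in EV400, with 2 of 10 called higher in PBS against normal. The 7 tubular injury markers summed to 430 to 531 CPM in normal, 1064, 1500.03 and 1169 in PBS, 815, 788 and 1785 in EV200 and 562 to 872 in EV400, with 4 of 7 called higher in PBS against normal. Spp1 and Clu, the most abundant of the 7, make up most of this sum. The part of these marker lists in the values of Brca1, Fancd2, Fanci and Chek1 was not tested.

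No member was called for either dose against PBS. In EV200 against PBS, where 0.016% of all genes were called, 3 members had an unadjusted p under 0.05, 7.32% against 6.9% of all genes: Fance higher, and Brip1 and Polh lower. In EV400 against PBS, with 0.0801% of all genes called, 6 members did, all lower (Fancd2, Fanci, Slx4, Brca1, Xrcc2, Polk), 14.6% against 23.5% of all genes in either direction and 12.6% lower. Libraries of EV400 lay below those of PBS without overlap for 8 members, 19.5% against 13.8% of all genes, and above for 2, 4.88% against 12.2%. The median change over members was -0.05 for EV200 and -0.08 for EV400, and over all genes 0.00 and -0.02. With both doses averaged against PBS, 0 members and 0.0374% of all genes were called.

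EV400 against EV200 gave 0 called members by edgeR and DESeq2 (0.00534% of all genes by edgeR), with Brca1 and Slx4 lower at an unadjusted p under 0.05 (6.34% of all genes in either direction and 3.81% lower). Against normal, EV200 had 0 called members by both tools (0.0694% of all genes by edgeR, 491 genes by DESeq2) and 3 at an unadjusted p under 0.05 (13.2% of all genes), Brca1 higher and Rev1 and Atr lower. EV400 had 0 called members by both (0% of all genes by edgeR, 29 genes by DESeq2) and 1 at an unadjusted p under 0.05 (6.98% of all genes), Slx4, lower.

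The wider pathway was read from 85 further genes of these processes, all tested. None was called by edgeR in any comparison, and DESeq2 called 3 in PBS against normal (of 2776 genes in all) and 2 in EV400 against PBS (of 877). With 1 library left out, edgeR called up to 2 in PBS against normal (without PBS 1 or EV200 3) and up to 1 in EV400 against PBS (without PBS 3 or EV200 3). In PBS against normal 8 were higher and 8 lower at an unadjusted p under 0.05, 18.8% against 29.8% of all genes, with a median change of 0.07 log2. The lowest p belonged to Gtf2h2, a TFIIH subunit (-0.33, adjusted p 0.0591 by edgeR), the ligase genes Lig1 (0.73, adjusted p 0.0675) and Lig3 (-0.24, adjusted p 0.0675) and the recombination gene Rad51d (-0.26, adjusted p 0.0933). Lig1 joins strands in replication and Lig3 in resting cells and mitochondria. Wee1, the kinase that holds cells before mitosis, had 13.5, 15.8 and 14.7 CPM in normal, 9.03, 11.3 and 13.3 in PBS, 13.1, 14.2 and 14.9 in EV200 and 17.2, 18.4 and 22.1 in EV400, with EV400 above all 9 other libraries. Its change in EV400 against PBS was 0.78 log2 (adjusted p 0.0737 by edgeR). As none of the 85 was called, these were picked by the smallest p after their values were seen.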

How the data were processed

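Gene counts and TPM of 12 mouse kidney libraries were used as the authors deposited them. The submitters' processing notes name FastQC 0.11.7, Trimmomatic 0.38, HISAT2 2.1.0, StringTie 2.1.3b and build GRCm38. Which counter, strand setting and annotation version were used is not given in the sources used here, so reads of genes that overlap on opposite strands cannot be told apart. The deposited counts were tested with edgeR 4.0.16 in R 4.3.3: TMM scaling, the group-wise expression filter, 1 quasi-likelihood fit over all 12 libraries with 8 residual degrees of freedom, and Benjamini-Hochberg adjustment over 18730 genes. CPM were counts over the TMM-scaled library size. TPM, as deposited by the authors, served for levels between genes. The 12 FPKM columns were not used. Exon overlaps came from GENCODE vM21, and promoters from RefSeq. The pipeline was tested on simulated data. Genes shown by library were every called member and the 2 members with the smallest p for any group difference in each of 10 sublists, with others marked. Members and lists were chosen with earlier results of these data known. Alternatives were DESeq2 1.42.0, its size factors in edgeR, no filter, the replicate number as a block, only the groups compared, and leaving out each library.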

Additional observations from a re-analysis of the deposited data

How the results depend on the processing

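The number of members called in PBS against normal, 1 with all libraries, was 0 with no filter on low counts and 2 by DESeq2 (Brca1 and Chek2). Leaving out 1 library at a time gave 0 to 2. Omitting PBS 3, EV200 3 and EV400 3, chosen after seeing the data, gave 2 (Brca1 and Rev1, the latter at -0.39 log2 with an adjusted p of 0.0449 by edgeR). The replicate number as a block gave 0 members, with Brca1 at 1.48 log2 and an adjusted p of 0.0899. Deviations from the group mean correlated above 0.1 in 4 of 18 same-numbered pairs. The correlations ran from -0.48 to 0.52 in these pairs and from -0.64 to 0.64 in differently numbered pairs. The numbers were therefore not taken to pair the samples. In EV400 against PBS, DESeq2 called 2 members (Brca1 and Slx4) and every edgeR alternative 0, the omission of each library included. For any difference among the 4 groups, DESeq2 called 1 and leaving out 1 library gave 0 to 1, with Brca1 called without EV200 3 (adjusted p 0.0424 by edgeR). The other 5 comparisons had 0 called members under each alternative run. Over all genes, PBS against normal gave 514 calls, 2776 by DESeq2, 1449 with only the groups compared, 299 with no filter, 0 with the block, 1121 without PBS 2 and EV200 3, 2319 without PBS 3, EV200 3 and EV400 3, and 0 to 2405 without 1 library. EV400 against PBS gave 15, 877 by DESeq2, and 0 to 65 without 1 library. EV200 against PBS gave 3, 40 by DESeq2, and 1 to 6. EV200 against normal gave 13, 491 by DESeq2, and 2 to 90. The test of any difference gave 12, 1663 by DESeq2, and 1 to 409 (409 without EV200 3). Fanci, with 11 to 50 counts per library, had the lowest level of the members.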
